A study of Oncorhynchus kisutch with 221 samples.

Results

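Of the 43636 probes on a salmon microarray, 100 were chosen because their season medians in coho salmon white muscle rose at each of 4 steps, from parr to smolt, spring, summer and fall. A probe is a short array feature named by its column and row. To be considered, a probe needed a value in at least 50% of the fish of each of 6 seasons, which 18589 probes had. Its fall fish had to have a standard deviation below 1 and a median at least 0.5 above the smolt median, which left 583 probes. Of these, 184 rose at all 4 steps, and the members are the 100 with the highest value of their smallest step.

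The study hybridised RNA from the white muscle of 221 single wild or hatchery fish against a pool of muscle RNA from the fish, with 2 dyes that were not swapped. The fish comprised 9 parr (hatchery fish of the Chilliwack River, 2008) and 48 river smolts (28 hatchery and 20 wild, from the Chilliwack, Capilano, Chehalis, Puntledge and Salmon rivers). At sea there were 15 spring fish (wild, southern Strait of Georgia, 2009), 64 summer fish (26 hatchery and 38 wild) and 76 fall fish (30 hatchery and 46 wild). The last group was 9 winter fish (5 hatchery and 4 wild, 2009). Summer and fall fish came from the Strait of Georgia and the west coast of Vancouver Island, in 2008 and 2009, winter fish from the same 2 coasts. Season thus moves with river, sea area, origin, year and body size: mean fork length was 5.09 ± 0.24 cm in parr (SD, n = 9), 11.3 ± 1.4 cm in smolts (n = 48), 11.3 ± 1.0 cm in spring (n = 15), 17.8 ± 2.3 cm in summer (n = 64), 25.3 ± 3.0 cm in fall (n = 76) and 34.5 ± 2.4 cm in winter (n = 9).

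Parr are river juveniles, and smolts are the stage that prepares for sea water and swims downstream. White muscle is the fast, mainly glycolytic tissue that forms most of the trunk of a salmon, and in growing fish it enlarges both by adding fibres and by thickening them. An array value of a whole tissue piece is an average over its cells, so fewer cells of a type and less RNA per cell cannot be told apart. None of the probe names matched the gene table used here, so the members have no gene names and their functions, and the labelled tissue's marker genes, were not analysed here.

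Values are given as log2 ratios to the pool, a likely reading that the sources used here do not state. If the pool holds the same fish, the mean linear ratio of a probe should lie near 1, where log2 is 0. The check took 1870 probes whose variance exceeded 1, with no limit on empty cells. The median over these probes of log2 of this mean was 0.16 under a fish over pool reading. It was 0.82 under a pool over fish reading and 0.83 if the values were natural logs. These medians keep the sign, so departures above and below 0 can offset each other. Over the 100 members it was 0.14, 0.26 and 0.35 in the same order, which separates the readings less. Every direction in the text rests on the fish over pool reading.

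All 100 members had a parr median below the level of the pool, at 0, and 92 had a fall median above it. Their median, over the season medians of the 100 probes, was -1.08 in parr, and in smolts it was -0.46. At sea it was -0.25 in spring, 0.00 in summer and 0.31 in fall. Over all 18589 measured probes the same medians stayed between -0.01 and 0.01. These values chose the members and are a description, with no test. Of all measured probes, 725 (3.90%) rose at all 4 steps and 515 (2.77%) fell at all 4.

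The rise was not even over all fish of each season. The steps ranked otherwise by size in matched subsets and after slide effects were removed, as given below. The step into smolts had a median of 0.57 over the members (range 0.08 to 2.22) and was the largest step in 68 of them. The steps into spring and into summer each had a median of 0.21, and the step into fall had 0.31 (0.08 to 0.80). Of its parr to fall rise, the median member made 41.6% in the step into smolts and 15.4% in the step into spring. The step into summer made 14.3% and the step into fall 23.4%, medians that need not add to the whole. The step into spring was the largest in 12 members, the step into summer in 4 and the step into fall in 16. The whole rise from parr to fall ran from 0.66 to 3.50, with a median of 1.35.

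C197R062 had both the largest smallest step, 0.31, and the largest rise. Its lowest, median and highest values were -3.87, -3.003 and -0.33 in 9 parr, -2.64, -0.82 and 1.25 in 48 smolts, and -3.003, -0.12 and 1.20 in 15 spring fish. They were -2.59, 0.19 and 1.42 in 64 summer fish, and -1.53, 0.50 and 1.72 in 76 fall fish. No parr lay above 0, and 57 fall fish did. Smolts and fall fish overlapped between -1.53 and 1.25, and neighbouring seasons overlapped although their medians were ordered.

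C135R069, second by smallest step (0.29), had medians of -2.06, -0.73, -0.37, 0.00 and 0.30 in the same 5 seasons. Its means did not keep that order: spring fish averaged -0.69 ± 0.74 (SD, n = 15) and smolts -0.61 ± 0.79 (n = 48). C032R054 had the second largest rise, with a median of -2.43 in parr (range -2.84 to 0.04) and 0.53 in fall (-0.65 to 1.31), and most of it lay in the step to smolts, at -0.21. At the edge of the list, C053R097 was the last probe inside with a smallest step of 0.0713, and C192R045 the first outside with 0.0712, so the limit of 100 separates no distinct group.

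Averaging the members within each fish showed how the medians rose. The lowest, median and highest fish means were -1.30, -1.14 and -0.58 in parr, -1.30, -0.61 and 0.69 in smolts, and -1.21, -0.14 and 0.48 in spring. They were -1.24, 0.00 and 0.73 in summer, and -0.91, 0.33 and 1.12 in fall. Fish with a mean above 0 numbered 0 of 9 parr, 17 of 48 smolts, 5 of 15 spring fish, 32 of 64 summer fish and 63 of 76 fall fish.

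The smolts did not form a continuous middle stage. Between -0.48 and -0.04 there was no smolt: 29 lay below this gap and 19 above it. The lowest smolts reached the level of the parr and the highest exceeded most fall fish. The share of fish above 0 was 35.4% in smolts and 33.3% in spring, and larger in summer (50%) and fall (82.9%). In parr, replicate 9 averaged -0.58, whereas the other 8 lay between -1.30 and -1.07.

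The level of the members went with the slide, the glass carrier that holds up to 4 arrays. The 221 arrays were spread over 61 slides, of which 37 carried fish of 2 or more seasons. Of 14 slides with at least 2 smolts, 9 had every smolt below 0, 4 had every smolt above 0 and 1 had both. Smolts of the same slide differed by a median of 0.19 in the mean of the members (45 pairs), against 0.57 for smolts of the same river on different slides (194 pairs). In the 10 pairs of smolts from different rivers on the same slide the median difference was 0.23. In summer, 11 pairs from different sea areas on the same slide differed by a median of 0.48, against 0.43 for pairs on different slides, and in fall 16 such pairs differed by 0.13, against 0.27. Slides held 93.2% of the variance of the fish means among smolts, where they held 42.6% of the degrees of freedom, and rivers held 25%. The slide share was 82.4% in summer (46% of the degrees of freedom) and 87% in fall (45.3%), against 2.75% and 4.22% for sea areas. In spring it was 37.8%, with 42.9% of the degrees of freedom. How much of this comes from the slide and how much from fish of a like kind placed together cannot be told apart from the labels.

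River labels gave partial order to the smolts. The 8 Chilliwack smolts all lay below 0 (-0.95 to -0.63), whereas 6 of 9 Puntledge, 7 of 15 Capilano, 2 of 10 Chehalis and 2 of 6 Salmon River smolts lay above it. River went with origin and year: the Chilliwack smolts were wild fish of 2008 and the Puntledge smolts hatchery fish of 2009. Only the Capilano had smolts of both origins. By origin, 14 of 28 hatchery smolts and 3 of 20 wild smolts lay above 0. The parts of river, origin and year in this order were not tested. Among smolts the share of empty cells on the array correlated with the mean of the members (r = 0.55, n = 48), whereas r was 0.33 in spring (n = 15), -0.06 in summer (n = 64) and -0.16 in fall (n = 76). These r values describe fish that share slides, and the part of empty cells in the result was not tested.

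Slides that carried fish of both seasons of a pair allow some steps to be read with the slide held fixed. No slide carried both smolts and spring fish, so the step into spring has no such reading. Fall fish averaged higher than summer fish on 11 of 16 slides, with a median difference of 0.17 (range -0.42 to 0.87). Summer fish were higher than smolts on 6 of 9 slides, with a median difference of 0.90 (-1.005 to 1.44). Fall fish were higher than smolts on 4 of 5 slides, by a median of 1.11 (-0.67 to 1.88). Summer fish exceeded spring fish on both slides that held them. On the only slide with a smolt and a parr, the smolt averaged 0.29 and the parr, replicate 9, -0.58.

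Summer and fall fish of the same slide tended to share a level (r = 0.76 over 16 slides), whereas summer fish and smolts did not (r = -0.56 over 9 slides). On slide 5 the summer fish averaged 0.31 and the smolts -1.13, and on slide 23 the summer fish averaged -0.85 and the smolts 0.16. Taken member by member, the median over slides was above 0 for 87 of 100 members for fall minus summer, 94 for summer minus smolt and 100 for fall minus smolt. These members were chosen on the same fish, so the counts describe how the choice holds within slides.

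After slide effects were removed in a fit of season and slide, single steps kept their sign in most members: 94 for smolt minus parr, 71 for spring minus smolt, 95 for summer minus spring and 95 for fall minus summer. All 4 steps together stayed above 0 in 56 members. Over all measured probes, 51.6%, 49.5%, 52.7% and 49.4% lay above 0 for the 4 steps in turn, and 4.65% for all 4 together. The members' median steps were then 0.59, 0.13, 0.44 and 0.21. The members were chosen for these steps in the same fish, before slide effects were removed. Their counts therefore lean on the choice and are not read as a result against these shares. The order of spring after smolts was thus the step that fewest members kept. No slide held both seasons of that step, so the fit linked them only through slides shared with other seasons.

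Subsets matched for place, year or origin are drawn from the fish whose medians chose the members, so their counts describe the choice and support nothing. Over all measured probes the share that was higher in the later season lay between 48.4% and 51.7% in the subsets given here. Within the Chilliwack River in 2008, 8 smolts, all wild, were set against 9 parr, all hatchery fish, so origin changed with stage. The members' medians were -0.73 in these smolts and -1.08 in parr. In smolts 72 of 100 members were higher, with a median difference of 0.23. In wild fish of 2009, 92 members were higher in spring fish than in smolts, with a median difference of 0.29. In wild fish of the southern Strait in 2009 all 100 were higher in summer than in spring, with medians of 0.19 and -0.25. The median difference was 0.38. In Strait fish of 2009 all 100 were higher in fall than in summer, with medians of 0.28 and 0.04 (median difference 0.23). Off the west coast 83 were higher in fall, with medians of 0.33 and -0.09 (median difference 0.33).

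Winter was the season whose level the choice did not use, and the members' median there was -0.25, as in spring. The winter median lay below the fall median in 94 members and below the summer median in 77. It lay below the spring median in 50, below the smolt median in 25 and below the parr median in 1. The rule put the other season medians in rising order in every member, so these counts could only fall or stay level along this series. In limma's moderated test over all 18589 probes, with Benjamini-Hochberg adjustment, 47 of the 100 members were lower in winter than in fall and none was higher. Of all probes tested, 10.8% passed in either direction and 4.97% were lower. Fall values of the same fish chose the members to be high. Nothing particular to the members is therefore read from this count or from those of the winter medians. The fitted difference had a median of -0.66 over the members, with the 100 values between -1.54 and -0.19. Over all probes its median was -0.02, and 47.9% lay above 0.

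C184R130 had the largest difference, -1.54 ± 0.34 (SE, adjusted p = 0.00175 in limma). Its 9 winter fish had values of -1.48, -1.58, 0.08, -0.34, -1.72, -0.81, -1.75, -0.36 and 0.30 for replicates 1 to 9, against -1.42, 0.96 and 1.84 as the lowest, median and highest of 76 fall fish. Replicates 1, 2, 5 and 7 were the lowest and below every fall fish. C015R006 followed at -1.27 ± 0.26 (SE, adjusted p = 0.000832 in limma). Its winter values were -2.71, -1.28, -0.15, 0.08, -2.14, -0.13, -2.08, -0.37 and -0.28, against -1.60, 0.42 and 1.70 in fall. The same 4 fish were again the lowest. Fall values chose both probes, both were picked as the largest called differences, and the fit had no term for slide. Their p values are therefore given as description only.

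The winter fish divided as the smolts did. The mean of the members was -1.28, -0.89, -1.31 and -1.11 in replicates 1, 2, 5 and 7, and 0.04, 0.29, 0.12, 0.17 and 0.30 in replicates 3, 4, 6, 8 and 9. Of the low fish, replicates 1, 2 and 5 were wild and 7 was a hatchery fish. Of the high fish, 3, 4, 6 and 8 were hatchery fish and 9 was wild. By origin the mean was -0.80 ± 0.75 in 4 wild and -0.10 ± 0.58 in 5 hatchery fish (SD), and the part of origin in the split was not tested. The winter fish sat on 6 slides, and slides held 99.6% of their variance with 62.5% of the degrees of freedom. Over the 9 fish the mean of the members had r = 0.59 with the share of empty cells and -0.77 with the interquartile range of the array, and the part of these in the split was not tested. Leaving out replicate 1, 2, 5 or 7 lowered the count of members called to 19, 28, 21 or 22, where 2.96%, 5.56%, 2.59% or 3.89% of all probes passed. When slide entered the fit as a fixed block, 5 members passed, beside 1.03% of all probes. C015R006 was among them and C184R130 was not. Replicates 1, 4, 5, 6 and 8 sat on slides that held only winter fish, so they add nothing to the difference in that fit. Among west coast fish of 2009 alone no member passed in limma, beside 0.0247% of all probes. There 50 members had an unadjusted p under 0.05, a count without its share over all probes, so nothing is read from it. On the 2 slides with both seasons, winter fish were lower than fall fish, by 0.15 and by 1.26.

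Body length within a season bears on whether larger fish had higher values at the same season. In summer and fall fish, with season in the fit, 4 of 100 members had a slope on fork length past the threshold, all positive, beside 2.54% of the 21797 probes tested (1.24% with positive slopes). The slopes of the 100 members had a median of 0.017 per cm (range -0.054 to 0.076) and were positive in 68. Over all probes tested the median slope was 0.0003 per cm, and 50.6% were positive. The members rise and fall together across fish, so the 68 are not separate counts.

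C109R127 had the steepest of the 4 slopes, 0.076 ± 0.022 per cm (SE, adjusted p = 0.0366 in limma). Among fall fish longer than the median of 25.35 cm its lowest, median and highest values were -1.70, 0.78 and 1.74 (38 fish), against -1.26, 0.53 and 1.77 in the 38 shorter fish. Among summer fish it had medians of 0.16 in 32 longer and -0.28 in 32 shorter fish. C167R101 had 0.065 ± 0.017 per cm (SE, adjusted p = 0.0229 in limma), with fall medians of 0.65 in 37 longer and 0.27 in 38 shorter fish. The other two were C092R034, at 0.065 ± 0.012 per cm (SE, adjusted p = 0.00112 in limma), and C032R054, at 0.046 ± 0.014 per cm (SE, adjusted p = 0.0461 in limma). Longer and shorter fish overlapped over most of their range in each of the 4.

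The slopes of summer and fall fish did not differ past the threshold in any of the 100 members or of the 21797 probes in limma (0%), where 11 members and 1282 probes had an unadjusted p under 0.05. C108R162 had the smallest p among the members, with a summer slope 0.097 ± 0.036 per cm above that of fall (SE, adjusted p = 0.815). In smolts, with river and origin in the fit, no member and none of 22993 probes passed in limma (0%), and 3 members and 775 probes had an unadjusted p under 0.05. C032R054 had the smallest p there, at 0.23 ± 0.08 per cm (SE, adjusted p = 1 in limma). With river and origin left out of the smolt fit, 15 members passed, all with positive slopes, beside 4.42% of probes in that fit. Condition factor is 100 times mass in g over the cube of fork length in cm. It gave no member and no probe of 21720 past the threshold in limma (0%), with 3 members and 1197 probes at an unadjusted p under 0.05. C092R034 again had the smallest p, with a slope of 1.46 ± 0.39 per unit (SE, adjusted p = 0.49 in limma).

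Females and males of summer and fall were compared next. No member passed in limma (beside 0.00924% of 21653 probes, 2 probes). The fitted difference of females minus males was nevertheless below 0 in 97 of 100 members, with a median of -0.22. Over all probes tested it was above 0 in 50.1%. An unadjusted p under 0.05 was found in 46 members and 1768 probes. The members rise and fall together across fish, so these are not separate counts. Mean values of the members were -0.26 ± 0.56 in 20 females and 0.07 ± 0.41 in 33 males in summer (SD). In fall they were 0.17 ± 0.40 in 38 females and 0.35 ± 0.33 in 37 males. With slide as a fixed block the median difference was -0.06 and 35 members lay above 0.

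C185R018 had the smallest p for sex, at -0.53 ± 0.13 (SE, adjusted p = 0.277 in limma). Its lowest, median and highest values in summer were -1.74, -0.46 and 0.78 in 20 females, against -1.05, -0.10 and 1.64 in 33 males. In fall they were -1.56, -0.16 and 2.62 in 36 females, against -1.26, 0.40 and 4.44 in 37 males. The sexes overlapped in both seasons.

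Origin, sea area and year gave no calls among the members. Hatchery minus wild fish of 2009 passed in none of the 100 members and none of 21722 probes in limma (0%), with 5 members and 1969 probes at an unadjusted p under 0.05. C003R120 had the smallest p, at 0.44 ± 0.13 (SE, adjusted p = 0.358 in limma). In fall of 2009 it averaged 0.36 ± 0.69 in 30 hatchery fish and -0.32 ± 0.72 in 38 wild fish (SD). West coast minus Strait fish of 2009 passed in no member and none of 21589 probes in limma (0%), with 9 members and 2025 probes unadjusted, and C092R034 came nearest at 0.29 ± 0.10 (SE, adjusted p = 0.331 in limma). Fish of 2008 minus fish of 2009, in wild Strait fish, passed in no member beside 2.65% of 21183 probes in limma, with 7 members and 3687 probes at an unadjusted p under 0.05. C003R120 had the smallest p, at 0.59 ± 0.23 (SE, adjusted p = 0.15 in limma).

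The members varied together across fish after season means were removed. The median correlation between 2 members was then 0.44 over 221 fish (range -0.03 to 0.96), and -0.003 between measured probes in general. The members were chosen for a rise in these same fish, whereas probes in general go both ways, so these medians are not like for like. The median between members was 0.62 in smolts, 0.41 in summer and 0.31 in fall. Within fish of the same season and slide it was 0.16 over 183 fish. C199R104 and C182R106 were the closest pair, at r = 0.96, a pair picked from all member pairs, and lay 17 columns and 2 rows apart. C083R045 followed the others least, with a mean r of 0.21.

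The same ordering of fish ran through the rest of the array. The leading axis of variation over the other 18489 measured probes, which held 16% of their variance, followed the mean of the members over all fish (r = 0.94, n = 221). The correlation was 0.93 in smolts (n = 48), 0.92 in summer (n = 64) and 0.84 in fall (n = 76). Of 12 control rows measured in every season, 0 rose at all 4 steps. Only 3.90% of all measured probes did, so 12 rows are too few to read this count. Single steps rose in 6 control rows into smolts, 9 into spring, 3 into summer and 6 into fall. The median steps of the control rows were 0.03, 0.18, -0.12 and 0.002 in the same order. Their r with the mean of the members ran from -0.44 to 0.29 over all fish and from -0.28 to 0.65 among smolts.

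On the array the members lay in columns 1 to 263 and rows 4 to 167 of 266 columns and 170 rows, and 1 pair of members lay side by side. Empty cells made up 1.54% of their values, against 3.54% for all measured probes, and 44 members had a value in every fish. Their median standard deviation within seasons was 0.64, against 0.42 for all measured probes.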

How the data were processed

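White muscle RNA of single fish was hybridised with pooled muscle RNA, per the labels' protocols. The authors deposited 1 normalized value per probe and array, taken here as a log2 ratio. Spot quantification, background correction, normalization, the reason for empty cells (47.3% of probe values), log base and direction are items not given in the sources used. Array medians lay between -0.01 and 0.03. The deposited table was used; a second deposited copy matched it, apart from 3168 cells of 1 array that only the first held. No scanner signals were analysed, so the number of fish limits the precision. Arrays were grouped by the season label, since titles call every fish a smolt. The 60 control rows were left out of tests, and no value column was left out.

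The members and comparisons were chosen with earlier results of these data known. Tests used limma 3.58.1 in R 4.3.3 (lmFit, eBayes, Benjamini-Hochberg over all probes tested, threshold 0.05) on probes with a value in at least 50% of the fish of each group compared. Winter minus fall came from 1 fit with a coefficient per season; the other tests had season, or river and origin in smolts, as covariates. No main test had a term for slide. Empty values were left out probe by probe in the tests. They were set to the probe's season mean for the correlation over all measured probes, and to the probe's mean for the leading axis of variation. The winter, fork length and sex fits were run on simulated data with independent noise for each probe and fish and no slide effect. They recovered between 89.5% and 99% of 200 changed probes, with 3 to 19 false calls. Those runs cannot show how the fits behave where fish share slides. Descriptions used Python 3.11.15 with pandas 2.3.3. Named probes are the 2 members with the largest smallest step, the 2 with the largest rise from parr to fall, the probes on either side of the limit, and in each test at most 2 called members per direction, or the member with the smallest p. C092R034 and C032R054, both named under other tests, were added to the length result to account for all 4, and the closest and least correlated members were named after their values were seen. The alternatives tried were 2 other scalings, a stricter filter, another variance model, slide as a block, subsets of fish, added covariates and leaving out fish.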

Additional observations from a re-analysis of the deposited data

Results flagged for a closer look

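Groups of 9 parr and 9 winter fish were searched for a fish far from the rest. The search took the mean of the members and each named probe, over 28 sets. Chance would mark about 1 in 20 separate sets. These sets share fish, and the mean of the members includes named probes, so they are not separate. C197R062, C135R069 and C032R054 were also named through steps or rises that used parr values. The number of marked sets is therefore not read against that rate. A parr was marked in 6 sets and a winter fish in 0. Parr replicate 9 was the highest in 5 of these: its mean of the members was -0.58, with the other parr between -1.30 and -1.07. It had -0.33 for C197R062 (others -3.87 to -2.63), -0.42 for C135R069 (others -2.40 to -1.76), 0.035 for C032R054 (others -2.84 to -2.16) and 0.0064 for C109R127 (others -1.76 to -0.99). This fish was the only parr on slide 54, and its fork length of 5.1 cm lay within the range of the others. Parr replicate 2 was the lowest for C092R034, at -1.08, with the others between -0.60 and -0.45.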

How the results depend on the processing

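Of the alternative values, 96 stayed close to the value reported (a count within 1.5 times, a season median within 1 SD of the fish) and 18 moved. The median effect over the members changed sign for condition factor in fall fish alone (-0.54, against 0.22), and with slide as a fixed block for sea area (-0.06, against 0.05) and year (0.02, against -0.08); for sea area it was also -0.03 in summer fish alone. The count of members lower in winter than in fall was 47, beside 10.8% of all probes in either direction. It became 30 under quantile normalization, beside 7.94%. With slide as a fixed block it was 5, beside 1.03% (C015R006, C026R018, C075R010, C160R036 and C258R108, the last 4 named after their values were seen). Among west coast fish of 2009 only it was 0, beside 0.0247%. Leaving out each winter fish in turn gave counts from 19 to 65, beside 2.96% and 14.9% of all probes in those 2 fits. The count was 49, beside 10.9%, without parr replicate 9 and spring replicate 2, an alternative chosen after seeing the data. The 4 members with a slope on fork length became 0 in summer fish alone, beside 0% of all probes. In fall fish alone they became 1 (C092R034), beside 0.664%. In summer fish alone 15 members had an unadjusted p under 0.05 in limma, a count without its share over all probes. The same 4 members remained called under the other 7 alternatives, which called 4 to 6 members each. Of all probes, between 0.615% (slide as a fixed block) and 3.03% (quantile normalization) passed in those fits. Fork length in smolts gave 15 with river and origin left out, beside 4.42%. Fall fish alone gave 1 for origin (C003R120, beside 0.481% of all probes) and 1 for sea area (C092R034, beside 1.14%). Condition factor, sex and year gave 0 under each alternative run, those with fork length or with origin, area and year added for sex being chosen after seeing the data. The parr median of the members was -0.82 under quantile normalization, and the winter median of wild fish of 2009 was -0.85. The choice of members depended more on the processing: of the 100, 96 were chosen again with arrays centred on their medians, 92 with values in at least 70% of fish, 80 without parr replicate 9 and spring replicate 2, 73 with no SD limit, 63 under quantile normalization, 58 with fish of 2009 plus the parr, 47 with means in place of medians, 41 with wild fish beside the parr and 18 with slide effects removed. No paired analysis was possible because replicate numbers follow the accession order and pair no fish. The main tests had no term for slide and treated fish as independent, and slide entered as a block only among the alternatives. The number of fish, above all the 9 parr and 9 winter fish, and the sharing of slides limit these values.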
